A study of Mus musculus with 11 samples.

Results

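At 72 h after a single injection of carbon tetrachloride (CCl4), 330 of the 7310 mesenchymal cells in the hepatic stellate cell (HSC) isolation carried at least 1 UMI of both Ankrd1 and Cthrc1, a share of 4.51% (exact binomial 95% interval 4.05 to 5.02%). A UMI is 1 captured RNA molecule, and the cells were chosen on these counts alone, among cells with at least 300 genes and at most 30% mitochondrial UMIs. They were compared with the 4695 cells of the same library that had neither gene, and set beside 286 cells with Ankrd1 only and 1999 cells with Cthrc1 only. The 5 droplet libraries of the series held 30999 cells that passed the same filters.

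The mice carried the Pdgfrb-BAC-eGFP transgene, in which the Pdgfrb promoter drives green fluorescent protein in mesenchymal cells, on a C57BL/6 background, and were males aged 10 to 16 weeks. The libraries were an uninjured HSC isolation (6850 cells), the acute CCl4 HSC isolation taken 72 h after injection (7310 cells), an HSC isolation after 6 weeks of injections given 2 times a week (5454 cells), and isolations for portal fibroblasts (PF) from uninjured liver (5737 cells) and after the same 6 weeks (5648 cells). The chronic livers were taken 48 h after the last injection. Each library pooled 3 mice and was the only library of its condition, so cells could not be assigned to a mouse, no p-value between conditions was possible, and every interval given here covers counting error only. HSC were enriched by density gradient, and the suspensions were stained for CD45 and CD102, a leucocyte and an endothelial antigen, before sorting.

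HSC are the vitamin A storing pericytes of the liver sinusoid. After injury they lose part of their quiescent programme and turn into contractile, collagen-secreting myofibroblasts. Ankrd1 encodes a nuclear ankyrin repeat protein that is a widely used readout of YAP and TEAD, the transcriptional pair that responds to tension and cell shape. Cthrc1 encodes a secreted collagen triple helix repeat protein made by activated fibroblasts. Acta2 encodes smooth muscle actin, the usual marker of the myofibroblast, and Fmod encodes fibromodulin, a proteoglycan that binds fibrillar collagen.

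Ankrd1 lies at chr19:36111961-36120099 on the minus strand, Cthrc1 at chr15:39076932-39087121 on the plus strand, Acta2 at chr19:34241090-34255590 on the minus strand and Fmod at chr1:134037254-134048277 on the plus strand (GRCm38). The stretches printed next are shown because Ankrd1 chose the cells and Acta2 was the most abundant of the genes that differed most in them, and because both hold the letters of the TEAD motif, GGAATG, within the 250 bases before the RefSeq start. The capitals mark that motif, which was searched on both strands as GGAATG and CATTCC.
Ankrd1, chr19:36120037-36120066, minus strand: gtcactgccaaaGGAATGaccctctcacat
Ankrd1, chr19:36119950-36119979, minus strand: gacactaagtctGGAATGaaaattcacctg
Acta2, chr19:34255502-34255531, minus strand: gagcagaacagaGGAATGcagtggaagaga
The Ankrd1 matches began 210 and 123 bases before the start, and the Acta2 match 146 bases before it. In GENCODE M21 the same stretches fall in an exon annotated as untranslated region, since that annotation holds transcripts that begin further upstream. GGAATG was present in 12.6% of all 32851 promoter windows of this length, in 1 of the 7 windows found for 7 of the 12 genes with the largest ratios (that of Acta2) and in 1 of the 14 windows found for 9 of the 12 genes with the smallest ratios (1 of the 2 of Ntm). The 250 bases before Fmod held no match. These are matches of letters and not measured binding.

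The share of cells with both genes was far higher in the 72 h library than in any other (plot of shares by library and depth). It was 1 of 6850 cells (0.0146%, 0.00037 to 0.0813%) in the uninjured HSC isolation and 2 of 5454 (0.0367%, 0.00444 to 0.132%) in the 6-week HSC isolation. It was 5 of 5737 (0.0872%) in the uninjured PF isolation and 2 of 5648 (0.0354%) in the 6-week PF isolation. Summed over all cells, Ankrd1 stood at 0.259 counts per 1000000 UMIs (CPM) in uninjured HSC, 19.4 CPM at 72 h and 10.6 CPM at 6 weeks. Cthrc1 stood at 0.172, 75.6 and 3.48 CPM in the same libraries.

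**Figure D1:**
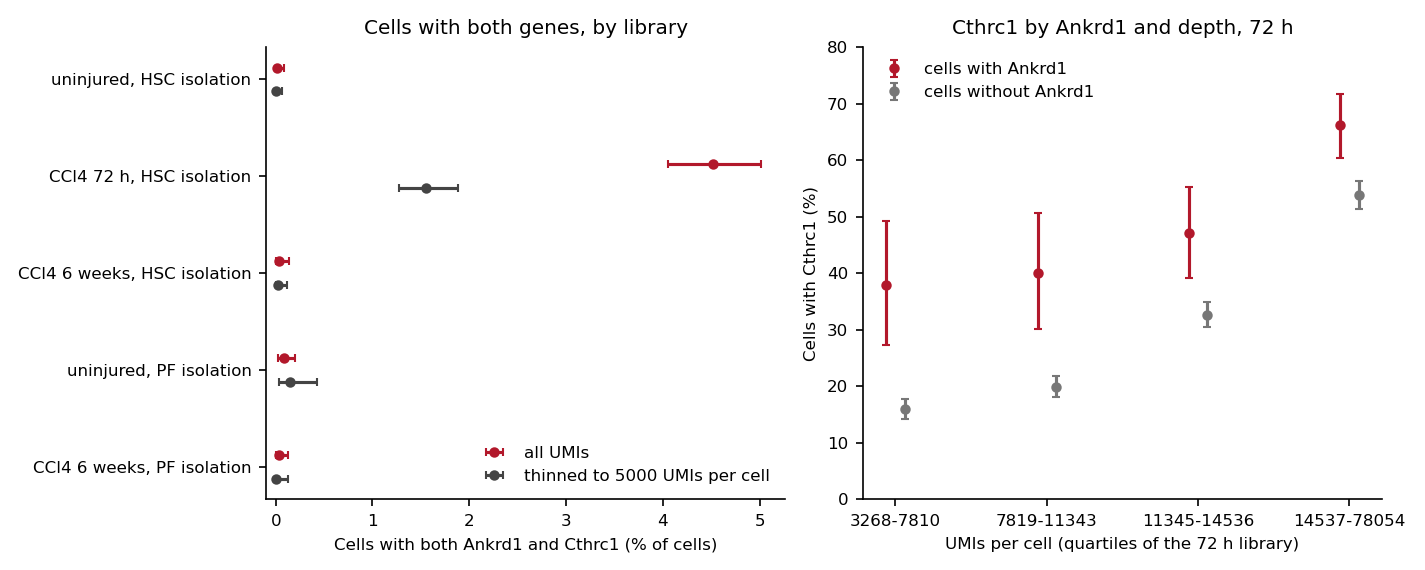
Left, share of cells with at least 1 UMI of both Ankrd1 and Cthrc1 in each of the 5 libraries, from all UMIs and after thinning each cell to 5000 UMIs; right, share of 72 h cells with Cthrc1 among cells with and without Ankrd1, in quartiles of UMIs per cell. Points are shares and bars exact binomial 95% intervals; the 72 h library stands at 4.51% and every other library below 0.1% before thinning, and within each depth quartile Cthrc1 was seen more often in cells with Ankrd1.

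The libraries differed in depth, with medians of 6718 UMIs per cell in uninjured HSC, 11344 at 72 h, 9893 at 6 weeks, 4300 in uninjured PF and 5097.5 in 6-week PF. Each cell was therefore thinned to 5000 UMIs, which left out 686 shallower cells of the 72 h library, 5 of them with both genes and 595 with neither. Of the 6624 cells that were kept, 103 had both genes (1.55%, 1.27 to 1.88%). After thinning, 0 of 5649 uninjured HSC had both genes, with an exact upper bound of 0.0653%, or 0.0531% if 0 is read as 3 counts. At 6 weeks, 1 of 4654 HSC had both (0.0215%). In the uninjured PF library the share after thinning was higher than before, at 3 of 2051 cells (0.146%, 0.0302 to 0.427%), with 3686 shallower cells left out. The 72 h library held no leucocyte, cholangiocyte or endothelial cell by 3 markers that could serve as a type lacking the genes. At least 3 hepatocyte markers were seen in 2 of the cells with both genes, 0 with Ankrd1 only, 10 with Cthrc1 only and 15 with neither. The part of free RNA in these shares was not tested. Between 48 and 74 cell barcodes of the 72 h library recurred in each other library, and at most 6 of them belonged to the 330 cells.

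The 330 cells were deep. They held a median of 15450 UMIs (3440 to 38077), against 12891.5 in cells with Ankrd1 only, 13419 in cells with Cthrc1 only and 10312 (3268 to 78054) in cells with neither gene. In quartiles of depth their share of cells was 1.70, 2.08, 3.996 and 10.3% from the shallowest to the deepest. Both genes were sparse within them, with a median of 1 Ankrd1 UMI (highest 87) and 2 Cthrc1 UMIs (highest 44), and 75 of the 330 cells rested on 1 UMI of each. Detection of one gene by the other is given as a description, since the rule used both. Cthrc1 was seen in 53.6% (49.5 to 57.6%) of the 616 cells with Ankrd1 and in 29.9% (28.8 to 31.0%) of the 6694 cells without it. Within the 4 depth quartiles the shares were 37.8 against 15.9%, 40% against 19.9%, 47.1 against 32.7% and 66.2 against 53.8%. After thinning they were 34.1% (28.8 to 39.8%) against 20.5% (19.5 to 21.5%).

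In the 6-week HSC library Cthrc1 was seen in 1.16% (0.141 to 4.14%) of the 172 cells with Ankrd1 and in 1.65% (1.32 to 2.03%) of the 5282 cells without it. The first share rests on 2 cells, and its interval is too wide to tell whether the genes went together there. In the uninjured PF library it was seen in 14.7% (4.95 to 31.1%) of the 34 cells with Ankrd1, 5 cells, and in 3.07% (2.64 to 3.55%) of the 5703 without it, and after thinning in 14.3% (3.05 to 36.3%) and 4.48% (3.62 to 5.48%).

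Genes were compared between the 330 cells and the cells with neither gene by summed CPM, and a ratio of at least 1.5 either way was called higher or lower. Of 5353 genes at 20 CPM or more over the library, 135 were higher (2.52%) and 341 were lower (6.37%). With a ratio of at least 2 these counts were 45 (0.841%) and 90 (1.68%). The median ratio of all genes was 0.943, and when ratios were scaled to that median the counts became 175 higher and 233 lower. With the rule applied to thinned cells, which left 103 cells with both genes, they were 215 and 804. The cells were chosen from the same counts, so the ratios describe them and carry no test.

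**Figure D2:**
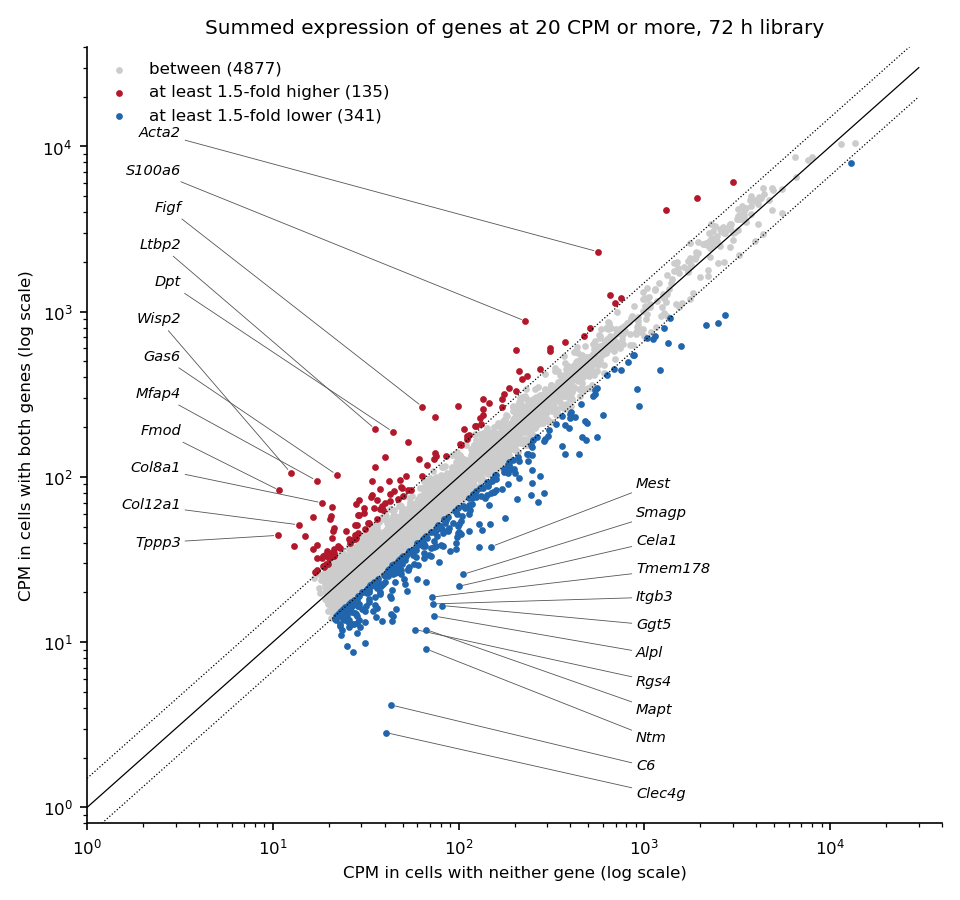
Summed CPM of each of 5353 genes in the 330 cells with both genes against the 4695 cells with neither gene, on log axes. The solid line marks equal levels and dotted lines a ratio of 1.5; 135 genes lie above and 341 below, and the 12 genes with the largest and the 12 with the smallest ratios are named.

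Acta2 was the most abundant of the 12 genes with the largest ratios. It stood at 2307 CPM in cells with both genes, 1537 with Ankrd1 only, 1059 with Cthrc1 only and 562 with neither, so the ratio of both to neither was 4.10 (4.02 to 4.19). Per cell it ranged from 0 to 113 UMIs per 10000, median 14.0, in the 330 cells, and from 0 to 135, median 1.09, in cells with neither gene. The ranges overlapped almost entirely while the medians were far apart, and 11 of the 330 cells had no Acta2 UMI. Detection, compared after thinning, was 90.8% against 51.5%.

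Fmod, the collagen-binding proteoglycan, stood at 82.9 CPM against 10.8 CPM, a ratio of 7.65 (6.73 to 8.69), and was seen after thinning in 28.0% against 4.27% of cells. Most cells of either class therefore showed no Fmod UMI at that depth. The largest ratio was that of Wisp2, a matricellular CCN protein that lacks the C-terminal domain of its relatives, at 8.53 (7.59 to 9.57; 106 against 12.5 CPM). Next were Mfap4, a microfibril-associated protein, at 5.52 (4.94 to 6.18) and Ltbp2, which binds fibrillin and not latent TGF-beta, at 5.48 (5.07 to 5.92). Ltbp2 was at 195 CPM in the 330 cells, 121 with Cthrc1 only, 73.9 with Ankrd1 only and 35.5 with neither. The rest of the 12 were Gas6, a ligand of the Axl receptor family (4.68), Dpt, the matrix protein dermatopontin (4.24), Figf, the lymphangiogenic growth factor VEGF-D (4.17), Tppp3, a tubulin-binding protein (4.16), S100a6, a calcium-binding protein (3.83, 877 against 229 CPM), and the collagen chains Col8a1 (3.78) and Col12a1 (3.72). Taken as a mean within depth quartiles, the ratio was lowest for Tppp3 (3.14) and highest for Fmod (8.22).

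**Figure D3:**
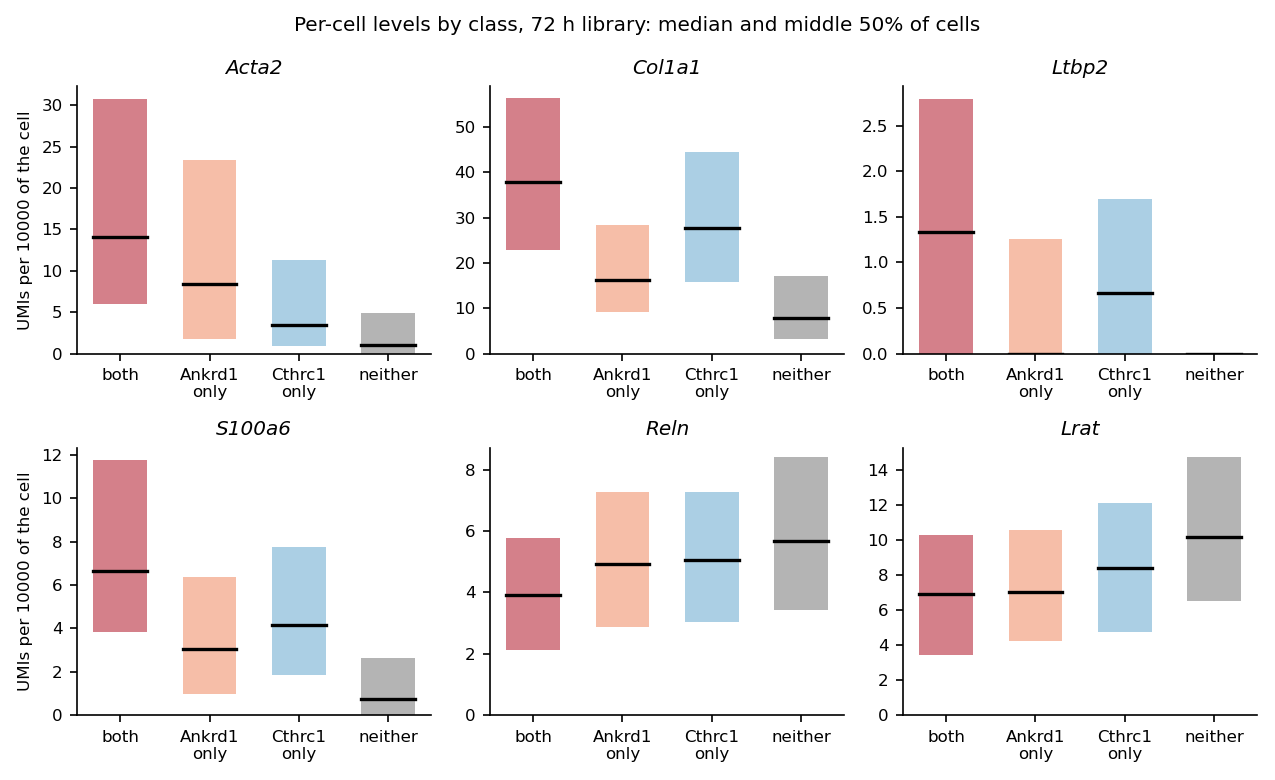
UMIs per 10000 of the cell for 6 genes in the 4 classes of 72 h cells (330 with both genes, 286 Ankrd1 only, 1999 Cthrc1 only, 4695 neither). Boxes span the middle 50% of cells and black lines are medians; the median of Acta2 is 14.0 in cells with both genes and 1.09 in cells with neither.

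Fibrillar collagen chains were higher as a group. Of 11 listed genes 6 passed the filter, 4 of them were called higher and 0 lower, with a median ratio of 1.99 against 0.943 for all genes. Col1a1, a chain of type I collagen, stood at 4128 against 1314 CPM, a ratio of 3.14 (3.09 to 3.19). Per cell it ran from 1.90 to 213 UMIs per 10000, median 37.98, in the 330 cells and from 0 to 360, median 7.90, in cells with neither gene, so no cell with both genes was without it. Col1a2 (2.57), Col3a1 (2.03) and Col5a2 (1.95) were the others called, and Col27a1 (1.48) and Col5a1 (1.47) fell just short. Of the beaded and network collagens, 5 of the 7 that passed were higher and 0 lower, among them the type VI chains Col6a1 (1.64), Col6a2 (1.92) and Col6a3 (1.74).

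By a collagen score built from Col1a1, Col1a2 and Col3a1 and cut where 2 groups of cells separated best, 316 of the 330 cells were high (95.8%, 93.0 to 97.7%). The share was 88.4% of cells with Cthrc1 only, 69.9% with Ankrd1 only and 40.8% with neither. With the score on values without logarithm the share of the 330 cells was 58.8%. The cut is a point on a range, with 1529 of the 7310 cells within 10% of it. The 330 cells made up 7.52% of the 4200 collagen-high cells of the library.

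Lox, the lysyl oxidase that starts crosslinking, stood at 164 against 53.5 CPM, a ratio of 3.06 (2.83 to 3.30), and Loxl1, which crosslinks elastin, at 1.79, so that 2 of the 4 family members that passed were higher, while Loxl2 was at 1.17 and Loxl3 at 0.81. Of 19 collagen folding and modifying enzymes 0 were higher and 1 was lower (P3h2), with a median of 1.03. Of 17 genes of protein folding in the endoplasmic reticulum 0 were higher and 1 was lower (Sdf2l1), with a median of 0.811. Of the metalloproteinases and their inhibitors 3 of 7 were higher, namely the inhibitors Timp1 (1.92) and Timp3 (1.81) and the protease Mmp23 (1.74).

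Matrix glycoproteins had members on both sides. Of 14 that passed, 7 were higher and 2 lower. Tnc, tenascin C, a matrix protein of wound tissue, stood at 132 against 40.3 CPM (3.28, 3.01 to 3.58), Thbs1, thrombospondin 1, an activator of latent TGF-beta, at 232 against 75.04 CPM (3.09, 2.89 to 3.30) and Eln, elastin, at 268 against 99.1 CPM (2.70, 2.54 to 2.86). Postn, periostin, was at 1.88. The lower genes were Tgfbi (0.48), a TGF-beta induced adhesion protein, and Emilin1 (0.62). Of the small leucine-rich proteoglycans, Fmod, Ogn (2.25) and Podn (1.56) were higher and decorin, Dcn, was lower at 7985 against 13025 CPM (0.61). Basement membrane genes had 0 higher and 4 of 10 lower, Lama1, Lamb1, Nid1 and Agrn, a count of lower genes that was 2 with median scaling and 2 without marker cells.

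**Figure D4:**
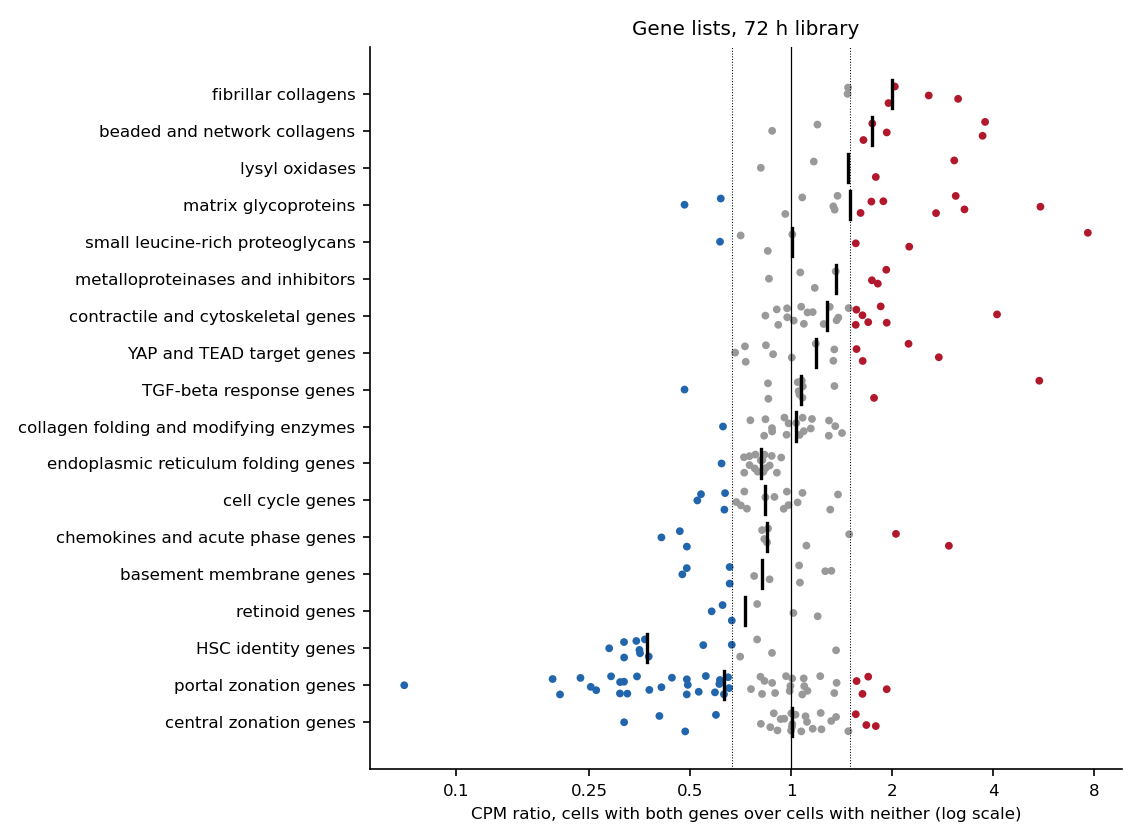
Ratio of summed CPM, cells with both genes over cells with neither gene, on a log axis, for the genes of 18 lists that passed 20 CPM; each point is a gene and black bars are list medians. Red points are at or above 1.5 and blue points at or below its inverse; the fibrillar collagens have a median of 1.99 and the HSC identity genes one of 0.371.

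Of the contractile and cytoskeletal genes 7 of 22 were higher and 0 lower. After Acta2 these were Tagln, the actin-binding transgelin (1261 against 655.5 CPM, ratio 1.92), the myosin heavy chains Myh10 (1.85) and Myh11 (1.69), tropomyosin Tpm1 (1.63), and the adhesion proteins Actn1 (1.56) and Zyx (1.56). Cnn1, calponin, did not pass the filter, at 9.27 CPM against 0.585 CPM. Vim, vimentin, the most abundant gene of the list, was just under the threshold (2603 against 1756 CPM, 1.48), and Myl6 was at 1.25, Des at 1.09 and Cald1 at 0.97. Of the YAP and TEAD targets other than Ankrd1, 4 of 13 were higher and 0 lower. Without doublet calls, and as a mean over cells, 4 were higher and 1 lower, and within depth quartiles 3 were higher and 0 lower. Ctgf, connective tissue growth factor, stood at 93.9 against 42.0 CPM (2.23, 2.02 to 2.47) and Cyr61, its CCN relative, at 1134 against 695 CPM (1.63), with Myof (2.75) and Amotl2 (1.56). The genes of the pathway itself were not called, Yap1 being at 1.13 and Wwtr1, which encodes TAZ, at 1.345. Among the TGF-beta response genes named here, Ltbp2 was higher, Tgfbi was lower, and Smad7, an inhibitor of the pathway, was at 1.05.

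HSC identity genes were lower, 10 of 14 with 0 higher and a median of 0.371. Within depth quartiles, and without marker cells, 9 were lower and 1 higher. With median scaling, and as a mean over cells, 9 were lower and 0 higher. Colec11, a collectin of the complement lectin pathway, stood at 953 against 2702 CPM (0.35, 0.34 to 0.36), Ecm1, an inhibitor of TGF-beta activation, at 442 against 1208 CPM (0.37), and Rgs5, a pericyte regulator of G protein signalling, at 267 against 931 CPM (0.29). Lrat, the enzyme that makes retinyl esters, was at 690 against 1038 CPM (0.66, 0.64 to 0.69), a call that was lost with median scaling (0.70), within depth quartiles (0.75), as a mean over cells (0.669) and without marker cells (0.75). Reln, reelin, was at 425 against 604 CPM, a ratio of 0.70 (0.67 to 0.74), which is not a call. Lhx2 (0.79) and Hand2 (0.88), transcription factors of the lineage, were not called either, and Adamtsl2 was at 1.36. Of 23 lineage transcription factors that passed, 2 were higher (Tbx20 and Prrx1) and 2 lower (Foxf1 and Rxra), or 0 lower with median scaling. Over all genes 2.52% were higher and 6.37% lower. Lrat was seen in 97.6% and Reln in 93.3% of the 330 cells, against 98.7% and 97.1% of cells with neither gene. These shares were taken on all UMIs, in classes with medians of 15450 and 10312 UMIs per cell, and the part of depth was not tested. In the uninjured PF library, with a median of 4300 UMIs per cell, Lrat and Reln were seen in 3.49% and 0.261% of cells. Of 6 retinoid genes 3 were lower (Lrat, Plin2 and Rarres2).

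The 12 genes with the smallest ratios were led by Clec4g, a lectin, at 2.84 against 40.4 CPM (0.070, 0.039 to 0.116), and C6, a complement component, at 4.16 against 43.4 CPM (0.096). They also included Ntm (0.14), Mapt (0.18), Alpl (0.19), Ggt5 (0.20), Rgs4 (0.20), Cela1 (0.22), Itgb3 (0.24), Smagp (0.24), Mest (0.25) and Tmem178 (0.26). Of these, 6 are among the 52 genes that the study used to mark the portal side of the HSC (Clec4g, Alpl, Rgs4, Itgb3, Mest and Tmem178). Of the 47 portal genes that passed, 26 were lower and 4 higher, the higher ones being Tagln, Tpm1, Myh11 and Crip1. Of 27 central genes, 4 were lower and 3 higher. The mean zonation score, portal minus central, was -0.156 (SD 0.318 over 330 cells) against 0.123 (SD 0.666 over 4695 cells). With Cthrc1 only it was further to the central side, at -0.255 (SD 0.374 over 1999 cells). With Ankrd1 only it was -0.0562 (SD 0.432 over 286 cells), so the shift was not particular to cells with both genes. The 330 cells were not at 1 end of that score. By quartile from the central end they made up 4.05, 5.15, 7.06 and 1.81% of cells, and the last quartile, with a median of 9880 UMIs per cell against 11635.5 to 12356 in the others, was the shallowest.

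Markers of other cell types were checked in full. Of the 8 fibroblast markers, 3 passed the filter and Dpt and Mfap4 were higher, and the list summed to 530 CPM in the 330 cells against 272 CPM in cells with neither gene, with Gpx3 the most abundant (166 against 171 CPM). In all, 146 of the 330 cells (44.2%) had UMIs of at least 3 fibroblast markers, against 31.5% of cells with Cthrc1 only, 17.1% with Ankrd1 only and 10.0% with neither. Shares with 3 markers, here and at 6 weeks, were taken on all UMIs and not on thinned cells. Median depth in the classes just named was 15450, 13419, 12891.5 and 10312 UMIs, and its part in the shares was not tested. Of the 5 fibroblast markers under the filter, Fbln2 stood at 29.9 against 7.51 CPM, Col15a1 at 20.6 against 5.33 CPM, Cd34 at 17.03 against 12.2 CPM and Entpd2 at 13.8 against 11.7 CPM, while Clec3b was at 0.379 against 2.79 CPM. The 146 cells still held Lrat at 557 and Reln at 375 CPM, while the other 184 held 815 and 473 CPM. Without cells with 3 markers of fibroblasts or of a non-mesenchymal type, which left 184 of the 330 and kept cells with smooth muscle markers, the ratio of Acta2 was 3.64, that of Col1a1 2.86 and that of Fmod 6.71.

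Of 8 smooth muscle markers 5 passed the filter and 4 were higher (Acta2, Tagln, Myh11 and Tnnt2). At least 3 of the markers were seen in 314 of the 330 cells (95.2%) and in 59.1% of cells with neither gene, again on all UMIs in classes of unlike depth. The list summed to 4066 against 1623 CPM, of which Acta2 made up 2307 and 562 CPM, while Pln was at 0 in the 330 cells and Npnt at 0.189 CPM. Hepatocyte markers summed to 32.7 against 54.1 CPM, Cyp2e1 leading at 25.5 against 7.12 CPM, and leucocyte markers to 22.7 against 9.12 CPM, Lyz2 leading at 20.6 against 7.57 CPM. Their part in the results was not tested. Cholangiocyte markers summed to 0.946 CPM, with 4 of 6 at 0, Schwann cell markers to 2.08 CPM, and all 6 mesothelial markers were at 0. Endothelial markers summed to 92.5 against 122 CPM, nearly all of it Egfl7. Calls as likely doublets fell on 26 of the 330 cells (7.88%, 5.21 to 11.3%) and on 4.90% of cells with neither gene.

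By a proliferation score, 27 of the 330 cells were high (8.18%, 5.46 to 11.7%), against 8.74% (5.74 to 12.6%) with Ankrd1 only, 13.2% (11.7 to 14.7%) with Cthrc1 only and 10.8% (9.95 to 11.7%) with neither gene. With the rule on thinned cells the share among cells with both genes was 3.88%. Of 17 cell cycle genes 4 were lower and 0 higher in the pooled comparison (Ccnb1, Cdc20, Cdca8 and Aurka), or 2 lower with median scaling. Without doublet calls 8 were lower and without marker cells 5, and as a mean over cells 4 were lower and 1 higher. Depth also moved with the count of lower genes. The 27 high cells held a median of 23510 UMIs against 14944 in the other 303, and as a mean within depth quartiles 12 of the 17 genes were lower, with a median ratio of 0.467 in place of 0.837. Mki67 was at 0.98 pooled and 0.42 within quartiles. In the 27 cells Acta2 was at 1540 CPM and Ankrd1 at 89.8 CPM, against 2415 and 209 CPM in the others.

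Chemokines had members on both sides. Cxcl1 and Cxcl2, which attract neutrophils, were higher (2.05 and 2.95), Cxcl10, Cxcl14 and Il34 were lower (0.47, 0.49 and 0.41), and Ccl2, which attracts monocytes, was at 268 against 328 CPM (0.82). Of 14 immediate early genes 1, Atf3 (1.58), was higher, against 3 with median scaling, 3 without marker cells and 2 within depth quartiles, and Fos was at 1.08.

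The genes most like each rule gene were named by detection. In 302 thinned cells with Ankrd1 against 6322 without, the genes with the highest ratio of the shares were Wisp2 (18.9 against 7.01% of cells), Tppp3, Col8a1, Tnfrsf12a and Cxcl2. In 1399 thinned cells with Cthrc1 against 5225 without, they were Fmod (19.7 against 6.01%), Mfap4, Wisp2, Ltbp2 and Gas6. Cells with Ankrd1 only and cells with Cthrc1 only were compared in the same way, and 36 genes were higher (0.673%) and 47 lower (0.878%) in the former, and 3 (0.056%) each way at a ratio of 2. With the rule on thinned cells the 83 genes apart became 226. Higher with Ankrd1 were Fbxl22, an F-box protein of the sarcomere (2.82, 2.48 to 3.22), Ccl2 (612 against 275 CPM, 2.23, 2.12 to 2.33), the receptor Tnfrsf12a (1.87), Ccl7 (1.80) and Clec4g (2.68), with Alpl, Rgs4 and Samd4. Higher with Cthrc1 were Fmod (46.9 against 17.5 CPM, inverse ratio 0.37, 0.29 to 0.48), Gas6 (0.45), Mfap4 (0.47), the mitotic kinesins Kif20a (0.51) and Cenpe (0.55), Lmo2, Cdkn1c and Wt1. Col1a1 stood at 2007 CPM with Ankrd1 only and 3274 CPM with Cthrc1 only (0.61), and Acta2 at 1537 and 1059 CPM (1.45), which is not a call.

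The cells just inside and just outside the rule are given as a description. Acta2 stood at 1442 CPM in the 75 cells with 1 UMI of each gene and at 2985 CPM in the 101 cells with at least 2 of each. Just outside, it was at 1187 CPM in the 193 cells with 1 UMI of Ankrd1 and 0 of Cthrc1, and at 870 CPM in the 919 cells with 1 UMI of Cthrc1 and 0 of Ankrd1. Col1a1 was at 2866, 4542, 1830 and 2502 CPM in the same 4 sets. Cells outside the rule with more UMIs of 1 gene reached past its lowest members. Acta2 was at 2217 CPM in the 93 cells with at least 2 UMIs of Ankrd1 and 0 of Cthrc1, and Col1a1 at 3825 CPM in the 1080 cells with at least 2 of Cthrc1 and 0 of Ankrd1. Over the 330 cells, the rank correlation of Acta2 with Col1a1 per UMI was 0.32, with Colec11 -0.49 and with Reln -0.31, and that of Col1a1 with Col3a1 was 0.77. These cells share 1 library, and each value is divided by the UMIs of the cell, with which Acta2 had a correlation of 0.13 and Colec11 one of -0.23.

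The 6-week HSC library, which played no part in choosing the cells, held 170 cells with Ankrd1 only, 87 with Cthrc1 only and 2 with both, both genes being rare there. In cells with Ankrd1 only, Acta2 stood at 1423 CPM against 104 CPM in the 5195 cells with neither gene, a ratio of 13.7 (13.1 to 14.3), Tagln at 5.44 (5.28 to 5.598) and Ctgf at 2.97 (2.68 to 3.28), while Col1a1 was at 366 against 598 CPM (0.61, 0.57 to 0.66) and Fmod at 0.24 (0.03 to 0.89) on 2 UMIs. In cells with Cthrc1 only, Acta2 was at 117 CPM (1.13, 0.94 to 1.34) and Tagln at 0.50 (0.44 to 0.56), while Col1a1 was at 3391 CPM (5.67, 5.48 to 5.86), Timp1 at 609 against 42.2 CPM (14.4, 13.2 to 15.7) and Fmod at 8.78 (6.09 to 12.4) on 40 UMIs. At 72 h both classes had ratios above 1 for Acta2 (2.73 with Ankrd1 only and 1.88 with Cthrc1 only), for Col1a1 (1.53 and 2.49) and for Fmod (1.61 and 4.33). The difference between the times was not tested, with 1 library each.

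**Figure D5:**
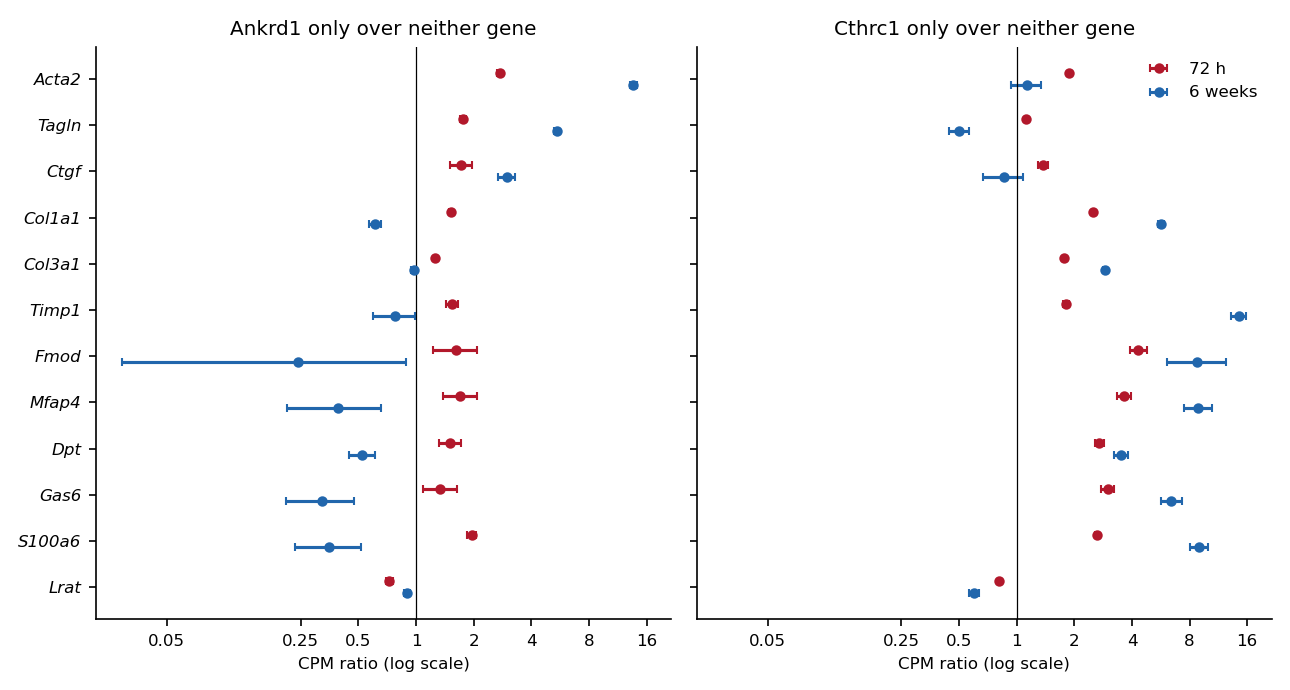
Ratio of summed CPM over cells with neither gene, on a log axis, for 12 genes in cells with Ankrd1 only (left) and with Cthrc1 only (right), at 72 h and at 6 weeks; bars are exact 95% intervals for counting error. At 6 weeks Acta2 stands at 13.7 with Ankrd1 only and 1.13 with Cthrc1 only, and Col1a1 at 0.61 and 5.67, whereas at 72 h all 4 ratios are above 1.

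At least 3 fibroblast markers were seen in 51 of the 87 cells with Cthrc1 only (58.6%), in 10 of the 170 with Ankrd1 only (5.88%) and in 11.6% of cells with neither gene, and Fbln2 and Clec3b stood at 129 and 36.7 CPM in the first class against 2.49 and 3.08 CPM. Without those cells, 36 with Cthrc1 only were left, in which Col1a1 was at 2.58 (2.35 to 2.83), Timp1 at 1.67 (1.06 to 2.52) and Acta2 at 0.55 (0.35 to 0.83) times the cells with neither gene. Fmod was then at 2.11 (0.25 to 7.81), an interval across 1, and without the cells with 3 smooth muscle markers at 2.84 (1.27 to 5.54). At least 3 smooth muscle markers were seen in 116 of the 170 cells with Ankrd1 only (68.2%) and in 24.2% of cells with neither gene, with Acta2 and Tagln among those markers, Myh11 at 109 against 25.4 CPM, and Cnn1 and Pln at 0 in both. Of the heat shock genes, Hspa1a was at 2.24 (2.12 to 2.38), Dnajb1 at 2.11 (1.97 to 2.25) and Hspa8 at 1.13 with Ankrd1 only over neither gene. At 72 h the same genes were at 0.94, 0.87 and 1.01. The immediate early genes Fos and Jun were at 0.78 and 0.80 at 6 weeks. The part of such genes in the other ratios was not tested. Lrat stood at 1380 CPM with Ankrd1 only, against 1541 CPM with neither gene. With Cthrc1 only it was at 922 CPM (0.60, 0.56 to 0.64), and without the cells with 3 fibroblast markers the ratio was 0.91 (0.84 to 0.99).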

How the data were processed

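Cells were profiled on the 10X Genomics 3' v2 platform. The authors aligned reads to mm10 (Ensembl 84) with Cell Ranger 2.1.0 and deposited, for each library, a matrix of whole UMI counts. From 7311 barcodes of the 72 h library 7310 passed, with 86664085 UMIs (median 3231 genes). Totals of the other libraries ran from 25965670 to 52235706 UMIs. The full-length plates (STAR) mix conditions under 1 label each and were not analysed here.

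UMI counts were summed over the cells of a class and divided by the class total (CPM). Ratios carry exact conditional 95% intervals, shares exact Clopper-Pearson intervals, and a count of 0 was read as up to 3. With 1 library per condition no test was run. The members and all gene lists were chosen with earlier results of these data known. Genes were named as the 12 largest and smallest ratios (8 each way for Ankrd1 only against Cthrc1 only), leaving out ribosomal, mitochondrial and unnamed genes, and from each list 2 to 4 of highest CPM or largest ratio; the text names more list members than that, chosen after their values were seen. Ensembl IDs gave coordinates in GENCODE M21 (GRCm38); promoters were those of RefSeq (GRCm38.p6).

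Scores were geometric means of log-normalized values (Col1a1, Col1a2 and Col3a1; Mki67, Cdca8, Cdc20, Ccna2 and Ccnb1), split by 2-means. Doublets were called from 30 neighbours among simulated doublets at 0.8% per 1000 cells. Counts of 5353 genes were simulated as class totals with counting error only, and all of 100 genes raised and 100 lowered 3-fold were recovered. That checks the computation alone, since variation between cells was not simulated and 3-fold lies far from the cut of 1.5. Python 3.11.15, numpy 2.4.6 and scipy 1.17.1 were used. Alternatives changed the rule, the filters, the comparison cells and the scaling. Some results on single genes are not reported here.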

Additional observations from a re-analysis of the deposited data

Results flagged for a closer look

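For 36 genes (those with the 12 largest and 12 smallest ratios at 72 h and 12 others of the text), 65 contrasts had at least 10 UMIs in each class at 6 weeks, and 12 of them lay on opposite sides of 1 in the 72 h and 6-week HSC libraries with intervals clear of it. Over the genes of all lists the same was so for 75 of 373 contrasts with Ankrd1 only (30 above 1 and then below, 45 the other way) and 38 of 376 with Cthrc1 only (19 each way). The difference between the times was not tested, since each time had 1 library, and the classes at 6 weeks held fewer cells. In cells with Ankrd1 only over cells with neither gene, 7 of the genes that reached 10 UMIs stood above 1 at 72 h and below it at 6 weeks. Fmod (1.61 and 0.24) and Ltbp2 (2.08 and 0.19) did so as well, on 2 and 9 UMIs at 6 weeks. Col1a1 was at 1.53 and then 0.61, Col1a2 at 1.40 and 0.86, Dpt at 1.51 and 0.52, Mfap4 at 1.70 and 0.39, and Gas6 at 1.34 and 0.32. S100a6 was at 1.95 and 0.35, and Timp1 at 1.54 and 0.77. Another 4 went the other way, with Clec4g at 0.36 and 2.15, Mest at 0.50 and 1.95, Rgs4 at 0.48 and 1.24, and Tmem178 at 0.36 and 1.44. Col8a1, at 2.06 and 3.12, was above 1 at both times. In cells with Cthrc1 only over cells with neither gene, Tagln was at 1.12 and 0.50.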

How the results depend on the processing

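Of 115 alternative values, 53 stayed within their band, 61 moved and 1 changed side. The band was the counting interval, 1.5 times the count for counts of genes, or 1 SD over cells for the zonation score. That SD band ran from -0.597 to 0.039 and held 0, so staying within it says little. The zonation difference was -0.279, and its 6 alternatives, all counted as staying, ran from -0.368 to -0.136, the last on thinned cells. No paired analysis was possible because each condition had 1 library. With the rule applied to cells thinned to 5000 UMIs, the share of cells with both genes was 1.55% at 72 h and 0% in the uninjured HSC and 6-week PF libraries, the ratio of median UMIs was 1.21 in place of 1.498, 215 genes were higher, 804 lower and 226 apart between Ankrd1 only and Cthrc1 only (83 before), Acta2 was at 3.76, Fmod at 5.89, Col1a1 at 3.34 and the high proliferation share at 3.88%. With at least 2 UMIs of each gene the values were 1.38%, 1.69, 571 lower, 5.31 (Acta2), 9.85 (Fmod), 3.46 (Col1a1), 0.66 (Reln) and 99.0% high collagen. Without cells of 3 markers of fibroblasts or of a non-mesenchymal type they were 3.07%, 1.41, 3.64, 6.71, 2.86 and 0.76 (Reln). Against all other cells, 73 genes were higher and 195 lower, with Acta2 at 2.96, Fmod at 3.51, Col1a1 at 2.04 and Reln at 0.74. Scaling to the median ratio gave 175 higher and 233 lower, with 4.35 for Acta2, 3.33 for Col1a1 and 0.75 for Reln. Acta2 was at 4.30 without doublet calls, 4.38 as a mean over cells, 4.28 without high proliferation and 3.85 within depth quartiles, and Col1a1 at 3.28 without doublet calls, 3.198 with at least 1000 genes and at most 10% mitochondrial UMIs and 3.41 within depth quartiles. At 50 CPM, 66 genes were higher, 184 lower and 32 apart, and at a ratio of 2 these counts were 45, 90 and 6. With no filter on CPM, 3894 genes were called higher and 1467 lower. There a count of 0 was read as 3, so a gene unseen in cells with both genes could be called higher. These 2 counts therefore cannot be read as numbers of genes that differed. The high collagen share on values without logarithm was 58.8%. Alternatives chosen after seeing the data concern 6 weeks. Without cells of 3 fibroblast markers, cells with Ankrd1 only had Tagln at 5.23 and Col1a1 at 0.79, and cells with Cthrc1 only had Acta2 at 0.55, Col1a1 at 2.58, Fmod at 2.11 (on few UMIs, 0.25 to 7.81), Timp1 at 1.67 and Lrat at 0.91. Without cells of 3 smooth muscle markers, Col1a1 was at 0.84 with Ankrd1 only, and with Cthrc1 only at 5.93, Fmod at 2.84, Timp1 at 19.4 and Lrat at 0.55. The cause of these shifts was not tested.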
